A study of Drosophila melanogaster with 6 samples.

Results

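The genes described are up, Mlc1 and Prm, which encode proteins of the muscle sarcomere in Drosophila melanogaster. They are 3 of the 63 genes that the platform annotation names singly on this array, and each has 1 probe, so 3 of 67 such probes are theirs. The annotation names no gene for most of the 15744 spots. The 3 genes were selected on their log2 ratios of mutant over wild type in earlier work on the same arrays, so these ratios are given as a description, with no test, and support nothing beyond the values themselves.

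The mutant embryos carried 1 mutant copy each of engrailed and gooseberry-neuro (EN-/GsbN- in the labels), and were set against embryos of the wild-type Oregon stock. All were raised at one temperature, and total RNA was amplified and coupled to Cy3 or Cy5. There were 3 biological replicates with 2 arrays each, with the mutant RNA in Cy3 on 1 array and in Cy5 on the other, which gives 6 arrays. Mutant and wild-type RNA shared every array. The alleles, the embryos' age and a control of the mutants' own stock are not stated in the labels, so mutation, stock and any difference in stage cannot be told apart. Whole embryos were used, so fewer muscle cells and less RNA per muscle cell cannot be told apart either.

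Striated muscle contracts when myosin in the thick filament pulls on actin in the thin filament, and calcium acting on the troponin complex switches this on. In the Drosophila embryo, contractile protein genes are turned on late, as myoblasts fuse and the body wall muscles differentiate. The gene up (upheld, gene ID 32314) encodes troponin T, which anchors the troponin complex to tropomyosin on the thin filament. Mlc1 (gene ID 43323) encodes the alkali or essential light chain of muscle myosin, which is bound to the neck of the motor. Prm (gene ID 39002) encodes paramyosin, a coiled-coil rod in the core of invertebrate thick filaments. In the reference gene table (Release 6) they lie on X, 3R and 3L, so they are not neighbours. Their spots were in blocks 17, 12 and 21 of the 24 printed blocks.

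All 3 genes were above background in both genotypes on every array, that is, at 2 or more times the local background around the spot. The signal of up is a deposited volume, pixel level times area, after subtraction of the local background. In replicate 1 it was 19.4 and 20.9 in mutants, against 24.7 and 29.0 in wild type. In replicate 2 it was 35.1 and 25.3 in mutants, against 91.7 and 98.4 in wild type. Replicate 3 had 11.3 and 8.93 in mutants, against 15.8 and 19.1 in wild type. The mutant channel was thus the dimmer on all 6 arrays, and the gap was widest in replicate 2. After loess normalization, which removes the dependence of the dye ratio on brightness, the log2 ratio of up was -0.31 and -0.36 in replicate 1, -1.45 and -1.71 in replicate 2, and -1.11 and -1.42 in replicate 3. Here and below the array with the mutant in Cy3 comes first. The mean over replicates was -1.06 ± 0.65 (SD, n = 3), or 2.08-fold lower in mutants.

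Mlc1 gave much signal over its background, at 52.9 to 293 times in the mutant channel and 101 to 926 times in the wild-type channel. In replicate 1 its background-subtracted volume was 214 and 234 in mutants, against 199 and 211 in wild type. In replicate 2 it was 379 and 299 in mutants, against 792 and 510 in wild type. In replicate 3 it was 94.6 and 104 in mutants, against 225 and 211 in wild type. Mutants and wild type were therefore alike in replicate 1 and apart in the other replicates. The log2 ratio was 0.10 and -0.07 in replicate 1, -1.09 and -0.85 in replicate 2, and -2.06 and -1.71 in replicate 3. Its mean of -0.95 ± 0.95 (SD, n = 3), or 1.93-fold lower, had an SD as large as the mean.

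Prm was read close to the limit of the measurement in some channels, at 2.56 to 7.99 times background in mutants and 3.62 to 27.5 times in wild type. Its background-subtracted volume in replicate 1 was 5.40 and 4.93 in mutants, against 5.90 and 6.96 in wild type. In replicate 2 it was 10.1 and 5.15 in mutants, against 15.7 and 13.7 in wild type. In replicate 3 it was 2.52 and 1.40 in mutants, against 2.87 and 2.84 in wild type. As with up, the mutant channel was dimmer on all 6 arrays and the gap was widest in replicate 2. The log2 ratio was 0.00 and -0.27 in replicate 1, -0.56 and -0.86 in replicate 2, and -0.43 and -0.67 in replicate 3. Its mean was -0.47 ± 0.29 (SD, n = 3), or 1.38-fold lower in mutants. The offset of 1 added to the volumes before the log pulls ratios of dim spots toward 0, so the size is understated most for Prm.

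**Figure D1:**
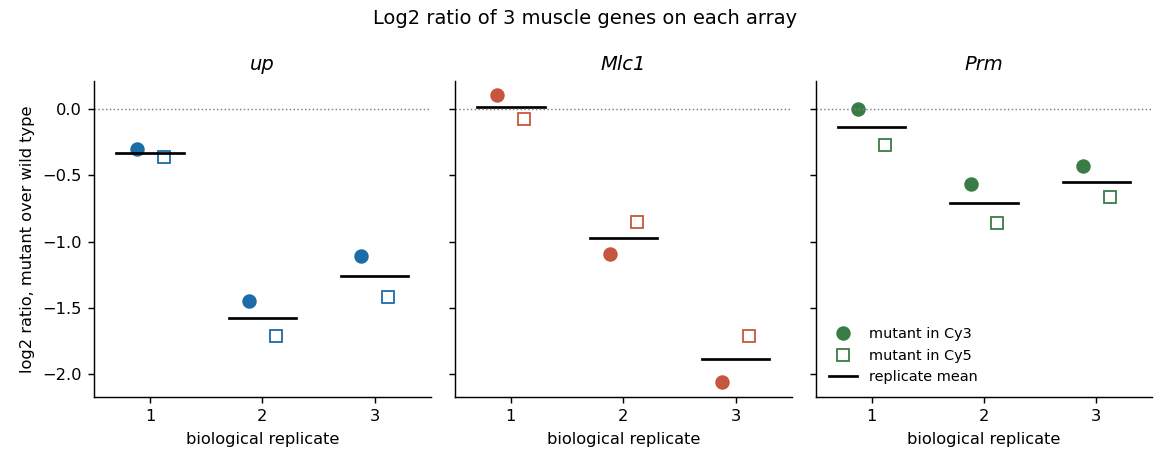
Log2 ratio of mutant over wild type (vertical axis) on each array of the 3 biological replicates (horizontal axis), for up, Mlc1 and Prm, with filled circles for the mutant in Cy3, open squares for the mutant in Cy5, and bars for the mean of a replicate. Both arrays of a replicate lie close together, replicate 1 lies nearest to 0 for each gene, and Mlc1 spans the widest range, between 0.01 and -1.89.

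Values were lower in mutants on 6 of 6 arrays for up, 5 of 6 for Mlc1 and 6 of 6 for Prm. Of the 14722 tested probes, 19.7% were lower on all 6 arrays. In the limma fit over all tested probes, 17.7% passed an adjusted p of 0.05 and 10.5% passed it with a lower level in mutants, while 0 of the 3 genes passed. Nothing is read from these shares, since the genes were chosen on the same ratios. The call of the 3 genes changed with replicate 1. Without it 2 replicates were left, and all 3 genes passed in limma, as did 15.7% of all tested probes. The log2 ratios were then -1.42 for up, -1.43 for Mlc1 and -0.63 for Prm. Replicate 1 lay nearest to 0 for each gene, so leaving it out favoured a call, and nothing is read from that call. All 3 also passed with replicate 1 kept when the 6 arrays entered singly with the replicate as a random block, a fit in which 26.7% of all tested probes passed.

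The dyes moved the values less than the replicates did. For up, the ratio with the mutant in Cy3 exceeded that in Cy5 by 0.06, 0.27 and 0.31 in replicates 1, 2 and 3, and for Prm by 0.27, 0.30 and 0.24. For Mlc1 the difference was 0.18, -0.24 and -0.35, without a common sign. The range between replicates was 1.24 for up, 1.90 for Mlc1 and 0.57 for Prm. The SD between the 2 arrays of a replicate, pooled over replicates, was 0.17 for up and 0.19 for both Mlc1 and Prm. The SD between replicate means, each over 2 dye-swapped arrays, was 0.65 for up, 0.95 for Mlc1 and 0.29 for Prm. It was the larger of the 2 SDs for each gene, by the least for Prm. They are not like measures. The SD between arrays is that of single arrays and holds any steady dye difference, which cancels in the replicate means. Of the 6299 tested probes above background in 1 or both genotypes on every array, 92.1% had a smaller range between replicates than up, 98.3% a smaller one than Mlc1, and 57.9% a smaller one than Prm. Among the 4290 above background in both genotypes on every array, these shares were 92.3%, 98.2% and 59.1%.

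The 3 genes moved together between replicates 1 and 2. The ratio in replicate 2 was below that in replicate 1 by 1.14 and 1.35 for up in the 2 dye orientations, by 1.19 and 0.78 for Mlc1, and by 0.56 and 0.59 for Prm. They parted between replicates 2 and 3. There up came back toward 0 by 0.34 and 0.30, Prm came back by 0.13 and 0.19, and Mlc1 was lower by a further 0.97 and 0.86. The thin filament gene up and the thick filament rod gene Prm thus had the same order of replicates in the main analysis, and the myosin light chain gene another. For Prm the mean gap between replicates 2 and 3 was 0.16. Its pooled SD of 0.19 between arrays of a replicate is no measure for this gap, since it holds the dye difference. That difference was 0.27, 0.30 and 0.24 in replicates 1, 2 and 3. Its steady part cancels in the replicate means. The order of replicates 2 and 3 changed with the processing for Prm and Mlc1, as given below. The gap between genes differed with the replicate: up minus Prm was -0.20, -0.87 and -0.71 in replicates 1, 2 and 3, and up minus Mlc1 was -0.35, -0.61 and 0.63.

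**Figure D2:**
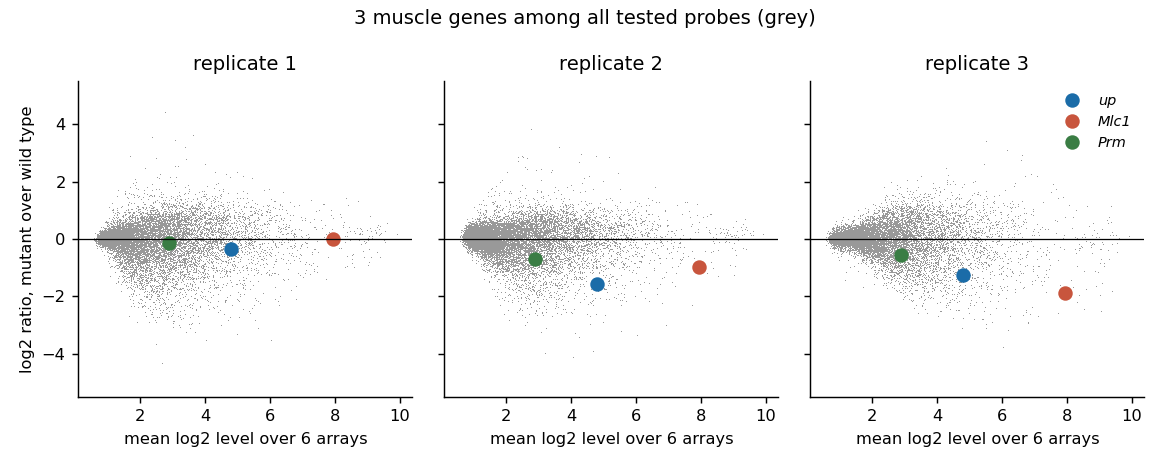
Log2 ratio of mutant over wild type (vertical axis) against mean log2 level over the 6 arrays (horizontal axis) in each replicate, for all 14722 tested probes (grey) and the 3 genes (coloured). In replicate 1 the genes lie within the cloud, and in replicate 3 Mlc1, at -1.89, lies at its lower edge among bright probes.

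Set among all tested probes, the genes changed place from replicate to replicate. In replicate 1, 22.0% of the probes had a lower ratio than up, against 2.18% in replicate 2 and 3.28% in replicate 3. For Mlc1 these shares were 52.1%, 6.24% and 0.815%. For Prm they were 31.9%, 10.2% and 11.4%. Each gene therefore ranked nearer the low end in replicates 2 and 3 than in replicate 1. The whole set of probes did not spread more in those replicates: the SD of the ratio over tested probes was 0.61 and 0.65 on the arrays of replicate 1, 0.58 and 0.56 in replicate 2, and 0.54 and 0.53 in replicate 3.

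The levels in each genotype hold the same ratios, since the mutant level minus the wild-type level is the log2 ratio. They do not show where the ratios came from. These levels are log2 volumes after loess and a quantile scaling between arrays, averaged over the 2 arrays of a replicate, and they are given per gene only. For up the mutant level was 3.96, 4.90 and 3.98 in replicates 1, 2 and 3, against 4.29, 6.48 and 5.24 in wild type. For Mlc1 it was 7.36, 8.40 and 6.60 in mutants, against 7.34, 9.37 and 8.49 in wild type. For Prm it was 2.46, 3.13 and 2.36 in mutants, against 2.60, 3.84 and 2.91 in wild type. All 3 genes had their highest level in replicate 2 in both genotypes and, in wild type, their lowest in replicate 1.

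**Figure D3:**
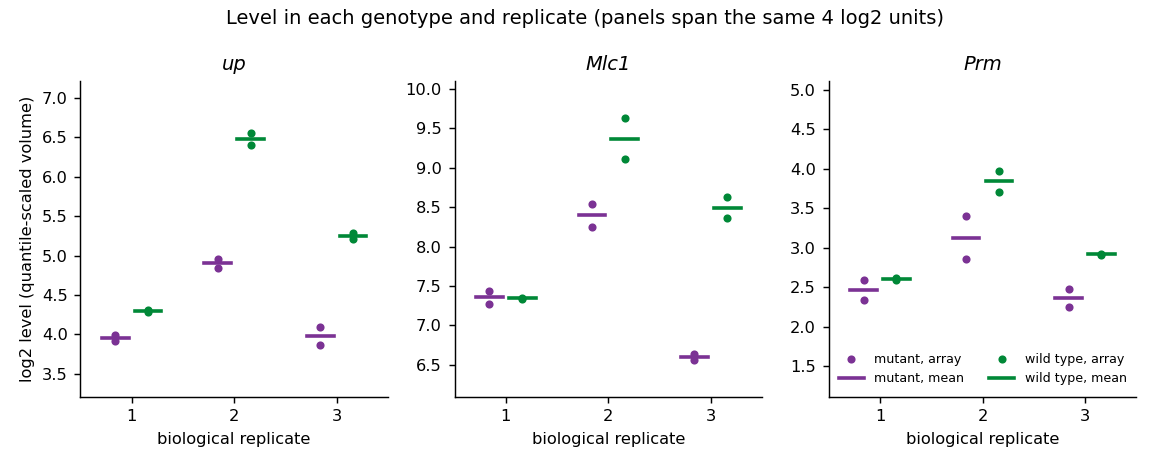
Log2 level after quantile scaling (vertical axis) in mutants (purple, left) and wild type (green, right) by biological replicate (horizontal axis), with points for the 2 arrays and bars for their mean, for up, Mlc1 and Prm. Wild-type levels are lowest in replicate 1 and highest in replicate 2 for each gene, at 4.29 and 6.48 for up.

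On this scale the wild-type level of each gene varied more than the mutant level. Between replicates the level ranged over 0.94 for up, 1.80 for Mlc1 and 0.76 for Prm in mutants, against 2.19, 2.03 and 1.24 in wild type. The median range over the 6299 probes was 0.43 in mutants and 0.55 in wild type. The step from replicate 1 to replicate 2 was 0.94 in mutants and 2.19 in wild type for up, 1.04 and 2.03 for Mlc1, and 0.66 and 1.24 for Prm. Of these probes, 97.6%, 97.9% and 95.6% had a smaller step than up, Mlc1 and Prm in mutants, and 99.4%, 99.1% and 94.5% in wild type. So the low ratios of replicate 2 went with levels that were high in both genotypes. That the wild-type level was the higher there follows from the ratio itself. From replicate 1 to replicate 3 the mutant and wild-type steps had opposite signs for Mlc1 (-0.75 in mutants, 1.15 in wild type) and for Prm (-0.10 and 0.31), and for up they were 0.02 and 0.95.

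Levels on different arrays also carry differences in labelling, hybridisation and scanning, whose part was not tested. Scaled on the upper quartile of each channel instead, the step from replicate 1 to 2 was 0.96 in mutants and 2.13 in wild type for up, 1.00 and 1.96 for Mlc1, and 0.84 and 1.41 for Prm. In the volumes with no scaling at all it was 0.55 and 1.79 for up, 0.59 and 1.62 for Mlc1, and 0.43 and 1.08 for Prm. Replicate 2 was the highest in both genotypes under each of these scalings. With no scaling Mlc1 varied more in mutants, over 1.76, than in wild type, over 1.62, and the lowest wild-type level of up and Prm was in replicate 3. The step from replicate 1 to 3 changed with the scaling too. On the upper quartile it was -0.20 in mutants and 1.58 in wild type for Mlc1, and -0.12 and 0.55 for Prm. With no scaling it was -1.17 and 0.09 for Mlc1, -1.08 and -0.94 for Prm, and -0.935 and -0.59 for up. Opposite signs were then left for Mlc1 alone.

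The size of the ratio in replicate 3 rested on the normalization for all 3 genes, with the largest shift in log2 units for Mlc1. Before any normalization within arrays, Mlc1 was at 0.12, -0.91 and -1.12 in replicates 1, 2 and 3. Loess moved replicate 3 by a further -0.77, to -1.89, and the other replicates by -0.11 and -0.06. The cause of this shift was not tested. The number of tested probes brighter than Mlc1 was 115, 46 and 85 in replicates 1, 2 and 3. With each array centred on its median, replicate 3 was at -1.38, and with the control spots kept in the loess fit at -1.34. Replicate 2 of Mlc1 was not stable either. With loess fitted within each printed block, Mlc1 was at 0.27, -0.24 and -1.54 in replicates 1, 2 and 3. There replicate 2 moved more from its main value than replicate 3 did, and the mean was -0.50. The dye ratio in the authors' deposited scanner tables stood at 0.05, -1.03 and -1.01 as deposited, and at -0.05, -1.10 and -1.09 once each array was centred on its median, so replicates 2 and 3 were alike in both forms. The authors' deposited table of log2 ratios gave 0.02, -0.95 and -1.92, close to the loess values.

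For up, replicate 3 was at -0.67 before normalization and at -1.26 after loess, and replicates 1 and 2 moved by 0.03 and 0.04. For Prm, replicate 3 was at -0.26 before normalization and -0.55 after loess. Over 19 other settings with 3 replicates, of which 6 leave the ratios themselves as they are, replicate 1 had the highest ratio of all 3 genes in 19. Replicate 2 was lowest for up in 19 and for Prm in 18, the exception being the scanner tables' dye ratio after centring, and replicate 3 was lowest for Mlc1 in 18 with the same exception.

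**Figure D4:**
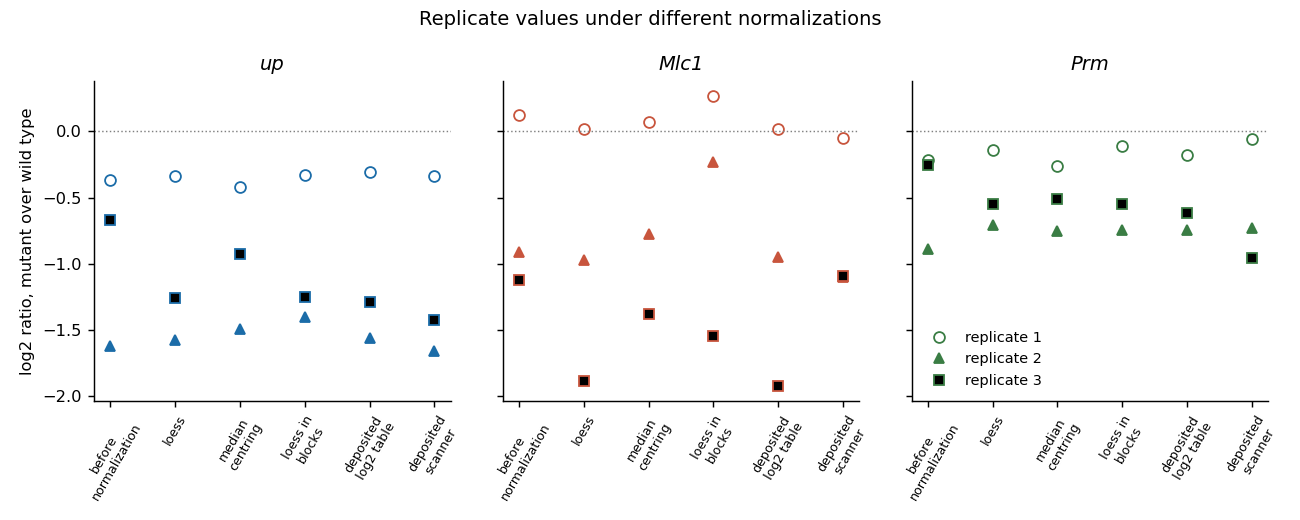
Log2 ratio of mutant over wild type (vertical axis) in replicates 1 (open circles), 2 (triangles) and 3 (squares) under 6 ways to process the same arrays (horizontal axis; the scanner tables' ratio is centred on each array's median), for up, Mlc1 and Prm. Replicate 1 stays nearest to 0 throughout except for Mlc1 with loess in printed blocks, where it is at 0.27 and replicate 2 at -0.24, and replicate 3 of Mlc1 lies between -1.09 and -1.92.

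Other named genes had ratios near these over the 6 arrays. Likeness was measured as the root mean square difference of log2 ratio, among 37 other named genes above background in 1 or both genotypes on every array. Of these, 30 were above background in both. A small difference reflects a like mean as well as a like order of replicates, so a near gene can vary otherwise. Closest to up was Gfat1, an enzyme of hexosamine synthesis, at a difference of 0.22, with ratios of -0.68, -1.59 and -1.22 in replicates 1, 2 and 3. Next came mAcon1, a mitochondrial aconitase, at 0.50, then SNF4Agamma, a subunit of AMP-activated protein kinase, at 0.52, Gprk1 at 0.55 and vsg at 0.57. Unlike up, Gprk1 hardly varied, at -0.96, -0.90 and -1.02 in replicates 1, 2 and 3. Closest to Mlc1 was Cht10, a chitinase gene, at 0.42, with -0.71, -0.88 and -1.87, and the second was up at 0.59. Cht10 was above background on 5 of 6 arrays in mutants, and among the 30 genes up was the nearest to Mlc1. SNF4Agamma (0.63), Gfat1 (0.68) and vsg (0.70) followed. Closest to Prm was mAcon1 at 0.19, with -0.27, -0.91 and -0.73, followed by CG9485 (0.31), Prp4k (0.35), SNF4Agamma (0.38) and su(f) (0.40). Prp4k, too, was above background on 5 of 6 arrays in mutants. Unlike Prm, Prp4k (-0.37, -0.42 and -0.10) and su(f) (-0.38, -0.38 and -0.04) had their highest ratio in replicate 3.

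Neither up nor Prm thus had another of the 3 genes among its 5 nearest. The difference was 0.59 between up and Mlc1, 0.66 between up and Prm, and 0.83 between Mlc1 and Prm. Of 6298 other probes above background in 1 or both genotypes on every array, named or not, 121 were nearer to Mlc1 than up was, and 266 were nearer to up than Mlc1 was. For Prm, 2478 were nearer than up and 3525 nearer than Mlc1. With probes above background in both genotypes alone, 96 were nearer to Mlc1 than up was, and 164 were nearer to up than Mlc1 was. Gfat1 and mAcon1 also had their highest wild-type level in replicate 2: Gfat1 was at 3.01, 3.92 and 2.74 in mutants, against 3.70, 5.51 and 3.96 in wild type, and mAcon1 at 3.93, 3.79 and 3.17 in mutants, against 4.20, 4.70 and 3.90 in wild type. In mutants mAcon1 was highest in replicate 1, unlike the 3 muscle genes.

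Of 43 gene symbols on a list of the contractile apparatus, its regulators and muscle formation, these 3 were named on the array. The list gives some genes under more than 1 symbol. In either direction 0 of 3 passed, against 17.7% of all tested probes, so nothing is read from that count. The annotation also names Scp1, a sarcoplasmic calcium-binding protein, which was not on the list and was picked out after its values were seen. It was above background on 0 mutant and 2 wild-type channels, at a log2 ratio of 0.00 ± 0.17 (SD, n = 3). Myosin heavy chain, the actins, the tropomyosins and the muscle regulator Mef2 were not analysed here. Few markers of other cell types were named either. Of 14 neuronal genes 3 were named. Ace and Snap25 exceeded background on 0 mutant and 1 wild-type channels each, and Dscam1 on 2 mutant and 4 wild-type channels. None of them passed in limma. Of 11 epidermis and cuticle genes the chitinase gene Cht10 alone was named. It was above background on 5 arrays in mutants and 6 in wild type, and was lower in mutants on all 6 arrays (-1.15 ± 0.63, n = 3, adjusted p = 0.0438 in limma). Its level was 2.43, 2.86 and 2.00 in mutants, against 3.14, 3.74 and 3.87 in wild type in replicates 1, 2 and 3. Whether this bears on the muscle genes was not tested. No gene was named on the lists for glia (0 of 7), fat body and haemocytes (0 of 9), gut and Malpighian tubules (0 of 5) or the germ line (0 of 8).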

How the data were processed

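Spots were quantified with ArrayVision, per the file headers. For each dye the deposited intensity is given as a spot volume, beside its local background and an intensity after the authors subtracted that background, in which negative differences were set to 0. The deposited scanner tables further hold a dye ratio, Cy3 over Cy5 on a log10 scale after scaling of Cy5, read here as a score because fillers stand where a subtracted volume was 0. The authors' deposited series table holds log2 ratios, which were made with limma per the submitters' processing notes, with background correction and normalization not given in the sources used here. Its rows were joined to the scanner tables by the spot order, of 48 tried, that followed the scanner ratios on all arrays (correlation 0.993 to 0.997 with the mutant in Cy3, -0.992 to -0.987 with the mutant in Cy5, so it is mutant over wild type throughout).

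From the volumes, background was corrected with normexp and an offset of 1 on the deposited scale, and arrays were normalized by loess in limma 3.58.1 under R 4.3.3, with no step between arrays. In all, 960 spots were read as controls or blanks by their layout (positions repeated in all blocks, runs of 8 spots at 1 level, blanks) and given weight 0. Another 62 probes marked by the scanner on any array were left out, which left 14722. Each ratio was given the direction mutant over wild type, the 2 arrays of a replicate were averaged and tested against 0 with lmFit and eBayes, with Benjamini-Hochberg adjustment over all tested probes. The script was tested on simulated data. The number of arrays limits the precision.

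In the mutant, 39.6% to 64.2% of tested probes exceeded background per array, and in wild type 38.4% to 63.9%. Ratios correlated over probes at 0.873 to 0.945 between arrays of a replicate and at 0.582 to 0.788 between replicates; probes are not independent replicates. Gene names came from the platform annotation and, for 62 of 67 probes, the reference gene table. Genes were named by likeness (the 5 closest to each member) and by list. The genes and lists were chosen with earlier results of these data known.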

Additional observations from a re-analysis of the deposited data

How the results depend on the processing

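In 22 other settings the mean log2 ratio stayed below 0 for all 3 genes. It lay between -1.42 and -0.36 for up, -1.43 and -0.48 for Mlc1, and -0.63 and -0.06 for Prm. Moves over 1 SD came with an offset of 50 on the deposited volumes, which exceeds most signals (up at -0.36, Prm at -0.058). Of the single replicates' ratios, 24 of 171 moved by more than the SD between their 2 arrays. How many of the 3 genes passed in limma was less stable. It was 0 of 3 in the main analysis, 1 of 3, namely up, with an offset of 0.25, median centring, the dimmest 25% left out, probes above background only, a trended prior or the scanner tables' dye ratio centred on the median, 2 of 3 (up and Prm) on arrays with the mutant in Cy5, and 3 of 3 with all 6 arrays and replicate as a random block. The share of all tested probes that passed was 17.5% to 27.3% in the settings that called up alone, except 42% among probes above background only, 17.4% with the mutant in Cy5 and 26.7% in the block fit. That block fit adds no biological replicate. Leaving out 1 replicate, so that 2 were left, gave 0 to 3 of 3, the 3 without replicate 1 (15.7% of all tested probes). Without replicate 3 the mean of Mlc1 was -0.48, against -0.95 with it.

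Over all probes, 2604 passed. The count was 1477 with an offset of 4, 52 with an offset of 50 (10 lower, 42 higher, against 1543 lower and 1061 higher) and 3933 in the block fit. Leaving out 1 replicate gave 0 to 3130, the 0 without replicate 2, although 2897 unadjusted p-values were under 0.05 there; the cause was not tested. The scanner tables' dye ratio, the fit with no normalization, the other scalings of levels and the filter on both genotypes' channels were chosen after seeing the data. Mutant and wild type share each array, so every fit is paired, and signal over background limits Prm most. Slide and scan date were not used here.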
